A study of Mus musculus with 2 samples.

Results

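The genes described here are 10 mouse chemokine ligands of skin: Ccl2, Ccl7, Ccl8, Ccl9, Ccl20, Ccl27a, Cxcl1, Cxcl2, Cxcl14 and Cxcl16. They were taken by gene symbol, as ligands not counted among the substrates of the dipeptidyl peptidase Dpp4, the enzyme that sitagliptin inhibits, and all 10 were found among the 31053 genes measured. Skin of C57Bl6 mice aged 8 weeks, of both sexes, received an intradermal injection of sitagliptin (a dose of 100 ng, in a volume of 100 µl of PBS) or of PBS alone, and was profiled by droplet single-cell RNA sequencing (10x Chromium). The labels name a time of 48 h without making clear from which event it runs, and they do not say how many animals gave each library. There was 1 library per treatment, so differences between them have no replicate check and carry no test, and the intervals cover counting error only. The data files of each library bear, as a letter in their names, the first letter of the opposite treatment. The text therefore speaks of the sitagliptin-labelled and the PBS-labelled library, and an exchange of labels would turn every direction.

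Chemokines are small secreted proteins that guide leukocytes along gradients by binding G-protein-coupled receptors, and atypical receptors take them up without that signalling. In skin, keratinocytes make constitutive ligands such as Ccl27a and Cxcl14 and inducible ones such as Ccl20, Cxcl1 and Cxcl2, while macrophages and fibroblasts are sources of the monocyte and eosinophil attractants of the CC family. Ccl20, Cxcl1 and Cxcl2 are textbook targets of the transcription factor NF-kappaB.

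By gene annotation on mm10, Ccl2 (chromosome 11, 82035571 to 82037453), Ccl7 (82045712 to 82047525) and Ccl8 (82115185 to 82116799) lie side by side on the plus strand, and Ccl9 (83572919 to 83578636) lies on the minus strand of the same chromosome. Cxcl1 (90891241 to 90893115) and Cxcl2 (90903871 to 90905938) are neighbours on the plus strand of chromosome 5. Ccl20 is on chromosome 1 (83116766 to 83119167, plus strand), Ccl27a on chromosome 4 (41769467 to 41774247, minus strand), Cxcl14 on chromosome 13 (56288643 to 56296551, minus strand) and Cxcl16 on chromosome 11 (70453983 to 70459984, minus strand). Counts of Ccl27a are uncertain, because 63.3% of the 31-base words at its 3′ ends also occur in other genes, among them its copy Ccl27b, and because it overlaps Il11ra1 on the other strand. For Cxcl2 that share was 10.9%, all with Cxcl3.

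RefSeq promoter windows on GRCm38.p6 were at hand for 7 of the 10 genes and were searched over the 250 bases before the start site, on both strands, for the NF-kappaB motif, read as 3 G, any 2 bases, 3 T and 2 C. That motif occurred in 1.41% of 32851 promoters. Of the 7 genes it occurred in Ccl20, Cxcl1, Cxcl2 and Ccl9. Positions −150 to −26 from the RefSeq start site are shown for these 4, 5′ to 3′ on the gene's strand, with each match in capitals, and for Cxcl14, the ligand with the highest level in root sheath and bulge cells, which holds no match. The windows are Ccl20 chr1:83116616-83116740 (plus strand), Cxcl1 chr5:90891095-90891219 (plus), Cxcl2 chr5:90903749-90903873 (plus), Ccl9 chr11:83578662-83578786 (minus) and Cxcl14 chr13:56296577-56296701 (minus).
Ccl20: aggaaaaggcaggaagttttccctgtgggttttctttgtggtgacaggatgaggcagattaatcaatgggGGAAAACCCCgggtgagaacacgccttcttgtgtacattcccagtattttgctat
Cxcl1: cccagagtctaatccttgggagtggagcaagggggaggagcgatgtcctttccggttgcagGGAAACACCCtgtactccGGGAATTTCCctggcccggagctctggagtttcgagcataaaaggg
Cxcl2: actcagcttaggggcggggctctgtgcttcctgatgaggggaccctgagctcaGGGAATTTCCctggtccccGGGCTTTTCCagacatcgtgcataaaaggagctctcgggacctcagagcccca
Ccl9: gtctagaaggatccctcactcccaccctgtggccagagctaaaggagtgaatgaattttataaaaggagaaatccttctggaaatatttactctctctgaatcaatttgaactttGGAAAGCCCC
Cxcl14: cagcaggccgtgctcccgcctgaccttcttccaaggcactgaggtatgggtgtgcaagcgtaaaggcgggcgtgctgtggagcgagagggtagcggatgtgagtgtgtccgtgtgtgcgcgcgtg
The neighbouring genes Cxcl1 and Cxcl2 each hold 2 matches, at −89 to −80 and −71 to −62 and at −97 to −88 and −78 to −69, and the letters GGGAATTTCC occur in both. Ccl20 has 1 match, at −80 to −71, and Ccl9 has 1 at −35 to −26. A match is a description of letters and not of binding.

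The libraries differed in size and in the cells they held. The sitagliptin-labelled library had 22085 barcodes and the PBS-labelled library 10456, of which 18380 (83.2%) and 5932 (56.7%) passed the filters of at least 500 genes, at least 1000 unique molecular identifiers (UMIs, the counted molecules) and at most 10% mitochondrial UMIs. Median depth was 2197 UMIs per retained cell in the sitagliptin-labelled and 6902.5 in the PBS-labelled library. Cells were clustered and named from marker genes: 18100 and 3975 keratinocyte-like cells, 11 and 720 macrophage-like cells, 7 and 77 dendritic-like cells, and 38 and 475 fibroblast-like cells, called by the cell's name below. Of the keratinocytes, 8037 and 398 could not be given a subclass such as basal or suprabasal, and they count only in values over all keratinocytes. Among them, 7204 and 30 lay in a cluster led by Malat1 and Gm42418, at medians of 1585 and 2239.5 UMIs per cell. The classes' own markers were high in both libraries: 24 keratinocyte markers summed to 59978 and 53296 CPM in keratinocytes, and 11 macrophage markers to 8881 and 13991 CPM in macrophages. Macrophages were not free of keratinocyte RNA, since the same 24 keratinocyte markers summed to 18161 and 22850 CPM there, above the macrophage markers. Of the retained barcodes, 41 occurred in both libraries, and leaving them out changed none of the counts of genes called below.

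Levels are given as CPM, a gene's UMIs scaled to all UMIs of its class, with an exact Poisson 95% interval, and ratios are sitagliptin-labelled over PBS-labelled CPM with an exact 95% interval. A gene passed the filter with 5 CPM or more in 1 library or both and 20 or more UMIs over the pair, and was called when its levels were then 2-fold or more apart. Ratios were taken only where both libraries had 20 or more cells of the class. Macrophages and dendritic cells fall short of that in the sitagliptin-labelled library, so their values stand side by side without a ratio.

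Ccl27a and Cxcl14, ligands that keratinocytes make without a stimulus, were the most abundant of the 10 genes in keratinocytes of both libraries. Ccl27a, the ligand of the skin-homing T-cell receptor Ccr10, had 380.3 CPM (376.1 to 384.5) in the sitagliptin-labelled library and 445 CPM (439 to 452) in the PBS-labelled one. The ratio was 0.854. Keratinocytes held 98 to 99% of the Ccl27a, Cxcl14, Cxcl16 and Ccl20 UMIs of the sitagliptin-labelled library, and 81 to 92% of those of the PBS-labelled library. Of all retained UMIs, keratinocytes held 83338977 of 85056939 in the sitagliptin-labelled and 44824788 of 57160088 in the PBS-labelled library, so in the sitagliptin-labelled library these shares are near that of any gene.

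Ccl27a had the same order over 4 keratinocyte subclasses in both libraries. It was highest in the upper follicle, with 699 CPM in the sitagliptin-labelled and 745 CPM in the PBS-labelled library, followed by outer root sheath or bulge cells with 545 and 504 CPM. Basal cells had 330.2 and 394 CPM, and suprabasal cells had 198 and 219 CPM. Among clusters with at least 100 cells in each library, the one led by Fst and Sostdc1 stood highest for Ccl27a, at 953 and 1121 CPM, and the one led by Lor and Crct1, cornified-envelope genes of the last living layers, stood lowest, at 94.7 and 73.6 CPM. Between libraries, the ratio of Ccl27a in these 4 subclasses lay between 0.839 in basal cells and 1.08 in root sheath and bulge cells. By cluster it ran from 0.712 (0.644 to 0.789) in the suprabasal cells led by Tesc to 1.29 (1.11 to 1.49) in those led by Lor and Crct1. With each cell thinned to 1000 UMIs, 47.5% of upper follicle cells had a Ccl27a UMI in the sitagliptin-labelled and 44.1% in the PBS-labelled library; unthinned, the shares were 85.1% and 88.0%. In T or innate lymphoid cells of the PBS-labelled library, which should lack Ccl27a, the thinned share was 4.92%, at a median of 1552 UMIs against 10389 in its upper follicle cells.

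Cxcl14, an epithelial ligand whose receptor is still debated, belonged to the follicle's outer root sheath and bulge. It had 2622 CPM there in the sitagliptin-labelled library and 2364 CPM in the PBS-labelled library, a ratio of 1.11 (1.07 to 1.15), and a UMI in 78.3% and 73.3% of thinned cells (90.7% and 92.9% unthinned), where T or innate lymphoid cells of the PBS-labelled library had 6.56%. Its highest cluster, led by Krt24 and Sfrp1, had 3270.4 and 2712.5 CPM. The next level was far below, at 395 and 428 CPM in basal cells, then 196 and 164 CPM in suprabasal cells and 159 and 113 CPM in the upper follicle. Over all keratinocytes Cxcl14 had 434 CPM in the sitagliptin-labelled and 288 CPM in the PBS-labelled library, a ratio of 1.51 (1.48 to 1.54), which was larger than the ratio in any of these 4 subclasses: 1.11 in root sheath and bulge, 0.922 in basal cells, 1.19 in suprabasal cells and 1.40 in the upper follicle. With these 4 subclasses and sebocytes weighted equally it was 1.18. Outer root sheath or bulge cells were 1675 of 18100 keratinocytes in the sitagliptin-labelled and 281 of 3975 in the PBS-labelled library.

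Cxcl16, a membrane-bound ligand of Cxcr6 that is also a scavenger receptor, was at a similar level in keratinocytes of both libraries. It had 65.3 CPM (63.6 to 67.1) in sitagliptin-labelled and 62.2 CPM (59.9 to 64.5) in PBS-labelled keratinocytes, a ratio of 1.05. Over the basal, suprabasal, upper follicle and root sheath or bulge subclasses it ran from 40.0 and 32.8 CPM in root sheath and bulge cells to 90.8 and 86.3 CPM in the upper follicle. The largest ratio among these 4 was 1.26 (1.11 to 1.41), in basal cells with 68.4 CPM in the sitagliptin-labelled and 54.5 CPM in the PBS-labelled library. Cxcl16 overlaps Zmynd15 on the other strand, and whether counting used strand is not stated in the sources used.

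**Figure D1:**
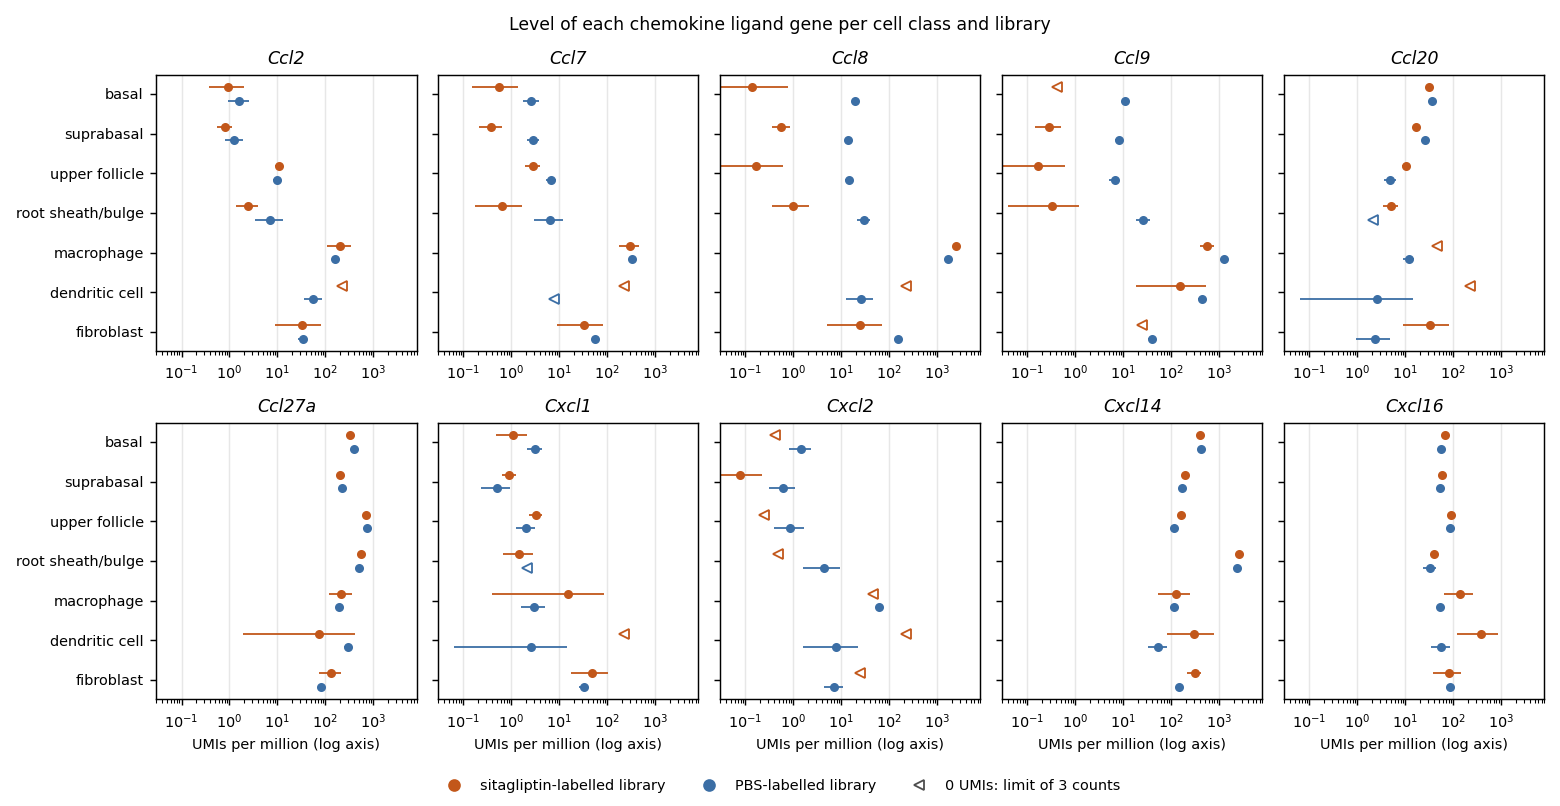
Level of each of the 10 genes in 7 cell classes (rows), in CPM on a log axis; orange points are the sitagliptin-labelled and blue points the PBS-labelled library, lines are 95% intervals of counting error, and open triangles mark 0 UMIs at the limit of 3 counts. Ccl27a, Cxcl14 and Cxcl16 sit closer together between libraries in the keratinocyte rows than Ccl8 and Ccl9 do.

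In keratinocytes as a whole, 6 of the 10 genes passed the filter on low values, 0 were called higher and 2 were called lower in the sitagliptin-labelled library, where 1.38% of the 9918 genes that passed were called. The 2 were Ccl8, a mouse agonist of Ccr8 known from dermal macrophages, and Ccl9, a mouse ligand of Ccr1. Ccl8 had 72 UMIs (0.864 CPM) in sitagliptin-labelled and 736 UMIs (16.4 CPM) in PBS-labelled keratinocytes, 19-fold lower (14.9 to 24.6). Ccl9 had 61 UMIs (0.732 CPM) and 417 UMIs (9.30 CPM), 12.7-fold lower (9.70 to 16.9). Of these sitagliptin-labelled UMIs, the cluster led by Malat1 and Gm42418 held 40 of 72 for Ccl8 and 43 of 61 for Ccl9.

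Both genes were also called lower in each of the 4 subclasses. In basal cells, where 1.46% of genes were called, Ccl8 had 1 UMI in the sitagliptin-labelled and 217 UMIs in the PBS-labelled library, a ratio of 0.0071 (0.000179 to 0.0400), and Ccl9 had 0 and 125 UMIs, at least 27-fold lower against a floor of 3 counts per library. In suprabasal cells, where 1.21% were called, Ccl8 was 25-fold lower (16.2 to 40.6) at 0.563 and 14.1 CPM, and Ccl9 was 28.5-fold lower (15.5 to 58.5) at 0.282 and 8.04 CPM. In the upper follicle Ccl8 had 2 and 149 UMIs and Ccl9 had 2 and 68 UMIs, with ratios of 0.0116 (0.00139 to 0.0425) and 0.0253 (0.00301 to 0.0951). Outer root sheath or bulge cells had 6 and 42 Ccl8 UMIs, 30.7-fold lower (13.0 to 88.3), and 2 and 37 Ccl9 UMIs, a ratio of 0.0123 (0.00144 to 0.0478). The direction was one and the same in all 4 subclasses, and it went together with fewer macrophages in that library, 11 against 720.

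Macrophage marker genes were lower in the same keratinocytes. The summed level of the 11 markers was 9.22 CPM in sitagliptin-labelled and 89.9 CPM in PBS-labelled keratinocytes, 9.76-fold lower, with 11 of 11 markers lower and none at 0 in either library. By subclass the sum was 3.27 and 93.8 CPM in basal, 6.45 and 77.4 CPM in suprabasal, 5.98 and 84.4 CPM in upper follicle, and 5.85 and 195 CPM in root sheath and bulge cells; in the sitagliptin-labelled library Adgre1, Fcgr1 and Ms4a7 were at 0 in basal, Fcgr1 and Ms4a7 in upper follicle, and Mrc1, Fcgr1 and Ms4a7 in root sheath and bulge cells. For each 100 macrophage marker UMIs, PBS-labelled keratinocytes held 18.3 Ccl8 UMIs (16.97 to 19.63) and their 4 subclasses 15.3 to 20.5, against 12.2 in macrophages. Intervals of such values, here and below, cover the counting error of the ligand alone, with the marker UMIs taken as fixed. Ccl9 came to 10.3 per 100 marker UMIs in PBS-labelled keratinocytes and to 7.77 to 13.5 in the 4 subclasses, against 9.20 in macrophages. In the sitagliptin-labelled library Ccl8 came to 9.38 (7.34 to 11.8) in keratinocytes, against 28.4 (24.2 to 33.1) in its 11 macrophages, so keratinocytes lay below macrophages there and above them in the PBS-labelled library. Ccl9 came to 7.94 (6.08 to 10.2), against 6.40 (4.51 to 8.82) in those macrophages. The Ccl8 value of those 11 macrophages rests on few cells, as 137 of their 164 Ccl8 UMIs lay in 4 cells of the cluster led by C1qa and Lyve1. That cluster held 39.0 Ccl8 UMIs per 100 marker UMIs in the sitagliptin-labelled and 13.9 in the PBS-labelled library. With cells thinned to 1000 UMIs, 2.97% of PBS-labelled keratinocytes had a Ccl8 UMI (16.2% unthinned), against 13.1% of T or innate lymphoid cells, which should lack it (14.8% unthinned), at median depths of 8524 and 1552 UMIs. The order of these shares turned with thinning. The part of free macrophage RNA in the difference between libraries was not tested.

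**Figure D2:**
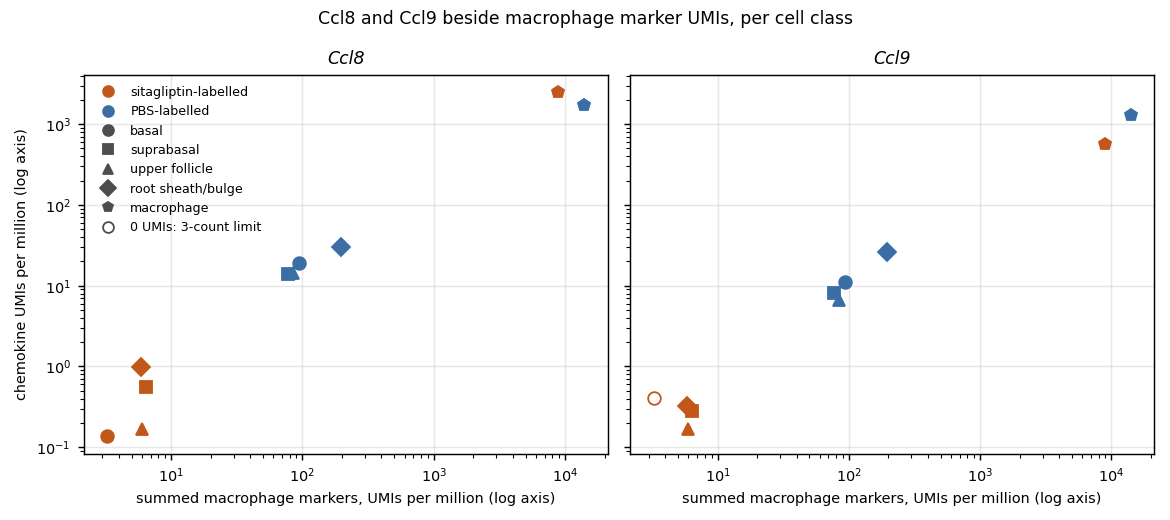
Ccl8 (left) and Ccl9 (right) against the summed level of 11 macrophage marker genes, both in CPM on log axes, for 4 keratinocyte subclasses and macrophages of the sitagliptin-labelled (orange) and PBS-labelled (blue) library; the open circle stands for 0 UMIs at the 3-count limit. All 4 keratinocyte subclasses lie lower on both axes in the sitagliptin-labelled library, and the macrophage points lie together at the top right.

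Macrophages themselves carried both genes at high levels in both libraries. Ccl8 had 164 UMIs (2519.8 CPM) in the 11 sitagliptin-labelled macrophages, 30.5% of them in 1 cell, and 7589 UMIs (1705 CPM) in the 720 PBS-labelled ones. Ccl9 had 37 UMIs (568 CPM), 51.4% of them in 1 cell, and 5731 UMIs (1288 CPM). Of all retained UMIs of Ccl8, macrophages held 68.6% in the sitagliptin-labelled and 85.2% in the PBS-labelled library. Ccl2 and Ccl7, ligands of the monocyte receptor Ccr2, had 199.7 and 292 CPM in sitagliptin-labelled macrophages, against 161 and 335 CPM in PBS-labelled macrophages. Cxcl2, a neutrophil attractant acting on Cxcr2, had 0 UMIs in the sitagliptin-labelled macrophages, where 3 counts would be 46.1 CPM and the 95% interval reaches to 56.7 CPM, and 60.7 CPM (53.6 to 68.3) in the PBS-labelled ones.

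The PBS-labelled library, with 720 macrophages, shows how the ligands divide among myeloid clusters. Macrophages led by C1qa and Lyve1, 390 cells, held the highest Ccl8 (3354 CPM), Ccl9 (2315 CPM) and Ccl7 (624 CPM) of all. Those led by Ly6c2, a monocyte gene, 179 cells, had Ccl8 at 603 CPM, with 36.3% of its UMIs in 1 cell, Ccl9 at 1149.7 CPM and Ccl2 at 278 CPM. Those led by C1qa and F13a1, 151 cells that also carried keratinocyte genes, had Ccl8 at 556 CPM and Ccl9 at 414 CPM. In these 151 cells the keratinocyte markers summed to 44671 CPM and the macrophage markers to 4068 CPM. A cluster led by Lyz1 and Retnla, 299 cells that stayed unnamed because dendritic-cell markers led it, differed in kind: Ccl8 was only 34.8 CPM, whereas Ccl9 was 2074 CPM, Ccl2 was 306 CPM and Cxcl2 was 558 CPM (1012 UMIs, in 132 of the 299 cells). That unnamed cluster held 31.2% of all Cxcl2 UMIs of the sitagliptin-labelled and 74.4% of those of the PBS-labelled library, and 49.8% and 36.7% of all Ccl9 UMIs.

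Ligands were also counted cell by cell, with no test of whether pairs occurred together more often than their shares give. Of the PBS-labelled macrophages, 320 had a Ccl2 UMI and 443 a Ccl7 UMI, and 248 of the 720 had both, which is 77.5% of the Ccl2-positive and 56.0% of the Ccl7-positive cells. Ccl9 was found in 671 of the 720 cells and Ccl8 in 500, and both in 479, which is 95.8% of the Ccl8-positive and 71.4% of the Ccl9-positive cells; with Ccl9 in nearly every macrophage, a high share of this kind follows for any gene. Cxcl1 and Cxcl2, the neighbouring genes with the shared motif letters shown above, were found in 11 and 84 of the 720 macrophages and together in 2, too few to compare.

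Dendritic cells held fewer of the ligands. Ccl9 had 150.4 CPM, from 2 UMIs in 1 cell, in the 7 sitagliptin-labelled and 431 CPM in the 77 PBS-labelled dendritic cells, and Ccl7 had 0 UMIs in both. Ccl27a had 1 UMI (75.2 CPM) and 293 CPM; in the PBS-labelled cluster led by Cd74 and H2-Aa, 17 of 63 cells had a UMI (15.9% thinned), against 6 of 61 T or innate lymphoid cells (4.92% thinned), at median depths of 4125 and 1552 UMIs. The part of free keratinocyte RNA in these UMIs was not tested. Cxcl16 had 376 CPM, from 5 UMIs, in the sitagliptin-labelled and 56.1 CPM in the PBS-labelled dendritic cells. In the PBS-labelled library Cxcl16 was highest in cells led by Fscn1, a gene of migrating dendritic cells, that stayed unnamed and outside this class. It had 351 CPM there (15 UMIs in 4 of 20 cells, 46.7% of them in 1). The 14 dendritic cells led by Cd207, the Langerhans-cell lectin, followed at 191 CPM.

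**Figure D3:**
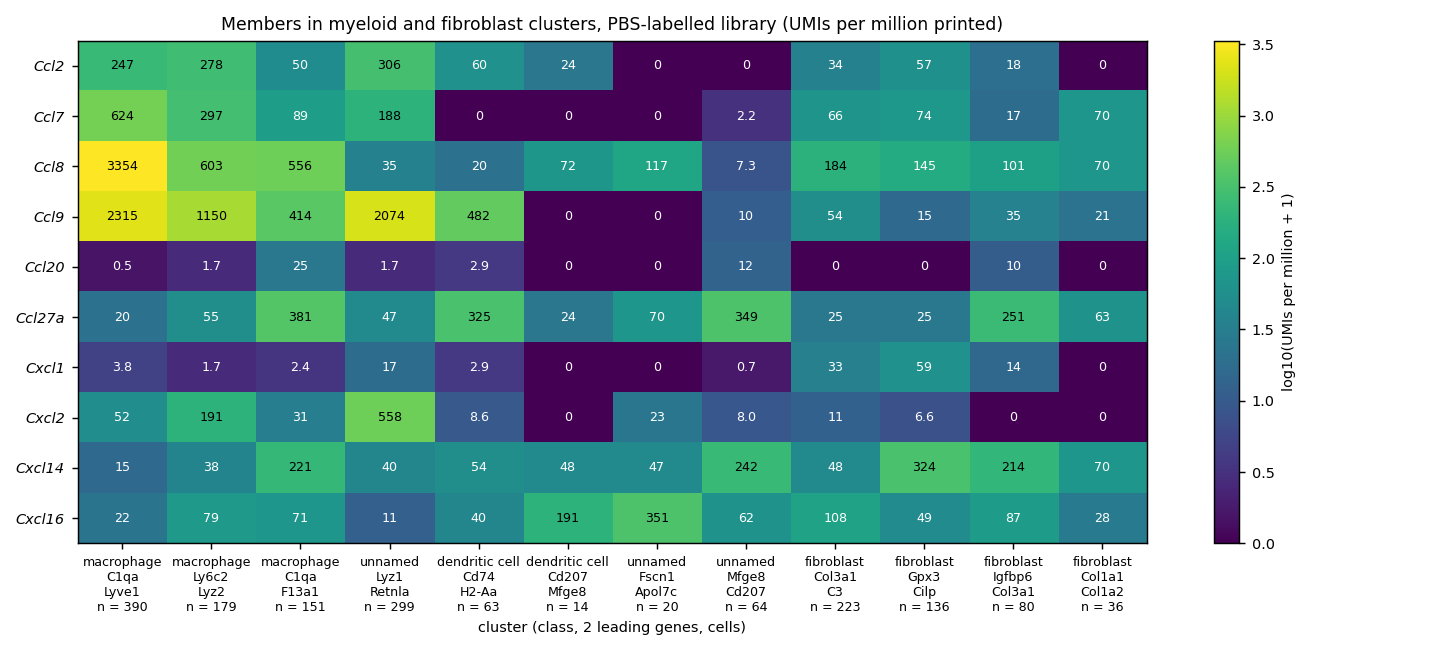
Level of the 10 genes (rows) in 12 myeloid and fibroblast clusters (columns, each named by its class and 2 leading genes, with its number of cells) of the PBS-labelled library; colour is log10(CPM + 1) and the printed numbers are CPM. Ccl8 peaks at 3354 in the macrophages led by C1qa and Lyve1, Cxcl2 at 558 in the unnamed cluster led by Lyz1 and Retnla, and Cxcl14 at 324 in the fibroblasts led by Gpx3 and Cilp.

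Fibroblasts were unlike in the 2 libraries. Of the 38 sitagliptin-labelled fibroblasts, 33 were in the cluster led by Igfbp6 and Col3a1 that also carried keratinocyte genes, against 80 of the 475 PBS-labelled ones, and the 9 fibroblast markers summed to 13431 CPM and 34603 CPM. The 24 keratinocyte markers summed to 47218 CPM and 11152 CPM in this class. In the sitagliptin-labelled library they lay above the fibroblast markers, so levels there cannot be read as those of fibroblasts alone. In this class 37.8% of all tested genes were called, so nothing is read from the calls. Ccl8 had 3 UMIs (24.3 CPM) and 444 UMIs (150.3 CPM), a ratio of 0.161 (0.0332 to 0.475), and Ccl9 had 0 and 117 UMIs. All 11 macrophage markers were at 0 in the sitagliptin-labelled fibroblasts and summed to 384 CPM in the PBS-labelled ones, and the part of macrophage RNA was not tested. PBS-labelled fibroblasts held 39.1 Ccl8 UMIs (35.6 to 42.9) per 100 macrophage marker UMIs, above the 12.2 of macrophages, and those led by Gpx3 and Cilp held 69.3 (55.6 to 85.4). Cxcl1, a neutrophil attractant acting on Cxcr2, was at 48.5 CPM (6 UMIs) and 32.2 CPM (95 UMIs), and fibroblasts held 4.38% and 41.9% of all its retained UMIs. Cxcl14 had 307 and 146 CPM, and Cxcl16 had 80.9 and 87.0 CPM. The part of keratinocyte RNA in these values was not tested.

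Ccl20, the Ccr6 ligand that draws Langerhans-cell precursors and Th17 cells, was called lower in some keratinocyte clusters of the sitagliptin-labelled library and higher in another. In basal cells it had 31.6 CPM in the sitagliptin-labelled and 35.8 CPM in the PBS-labelled library, a ratio of 0.882 (0.748 to 1.04). In suprabasal cells it had 16.5 and 25.5 CPM, a ratio of 0.646 (0.572 to 0.729). In the upper follicle it had 10.1 CPM (122 UMIs) and 4.92 CPM (51 UMIs), a ratio of 2.06 (1.47 to 2.92), and was the 1 gene called higher among the 8 that passed there, beside 3 called lower (Ccl7, Ccl8 and Ccl9), where 1.0% of all genes were called. Among root sheath and bulge cells it had 31 UMIs and 0 UMIs, at least 2.36-fold higher, and was again the 1 gene called higher, beside 3 called lower of 7 that passed, where 5.89% were called. Of those 31 UMIs, 14 lay in the cluster led by Krt24 and 14 in a cluster led by Krt75. That Krt75-led cluster had 148 cells in the sitagliptin-labelled and 3 in the PBS-labelled library. In the Krt24-led cluster alone, at 3.78 and 0 CPM, Ccl20 did not pass the filter. The root sheath and bulge call of Ccl20 was lost with thinned cells and with at most 5% mitochondrial UMIs. Its range over all alternative settings is not given here, because the PBS-labelled library had 0 UMIs. Over all keratinocytes, Ccl20 had 15.8 CPM and 21.04 CPM, a ratio of 0.749 (0.688 to 0.815).

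Few cells carried Ccl20. In the sitagliptin-labelled library 4.03% of keratinocytes had a UMI (1.52% thinned) and in the PBS-labelled library 4.78% (1.03% thinned), and 1 PBS-labelled basal cell alone held 99 UMIs. A Ccl20 UMI was also found in 1 of the 61 T or innate lymphoid cells of the PBS-labelled library (1.64%), so no order is read from these shares. Without the cell with the most UMIs in each library, chosen after the data were seen, the ratio became 0.812 (0.744 to 0.887) over all keratinocytes, 0.972 (0.807 to 1.17) in basal and 0.761 (0.668 to 0.868) in suprabasal cells. In the upper follicle it became 2.19 (1.51 to 3.22), at 8.66 and 3.96 CPM, but the call there was made in 6 of 13 alternative settings, and with at most 5% mitochondrial UMIs the ratio was 1.14. Suprabasal cells also differed in make-up: the cluster led by Hrnr and Flg2 had 2035 cells in the sitagliptin-labelled and 51 in the PBS-labelled library.

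By cluster, Ccl20 was highest in the basal cells led by Igfbp3, at 46.2 CPM in the sitagliptin-labelled and 56.1 CPM in the PBS-labelled library, and 1 PBS-labelled cell held 29.5% of its library's UMIs there. In the suprabasal cluster led by Krt16, a keratin of stressed epidermis, it had 16.1 and 36.3 CPM, a ratio of 0.443 (0.363 to 0.539), called lower where 1.56% of genes were called. There, 1 PBS-labelled cell held 85 UMIs, 28.7% of the total, and without the top cells the ratio was 0.541 and the call was lost. In the suprabasal cluster led by Tesc it had 8.71 and 30.003 CPM, a ratio of 0.29 (0.198 to 0.422), where 2.13% were called; 1 PBS-labelled cell held 42.7% of the UMIs, and without the top cells the ratio was 0.388. In the dividing upper follicle cluster led by Hist1h2ap and Sostdc1 it had 14.5 and 6.88 CPM, a ratio of 2.11 (1.42 to 3.18), where 1.29% were called, and 2.32 without the top cells. In the cluster led by Lor and Crct1 it had 13.2 and 16.2 CPM, and without the top cells the values turned, to 11.9 and 8.36 CPM. In the dividing suprabasal cluster led by Nusap1 it had 16.8 and 9.11 CPM, a ratio of 1.84 (1.24 to 2.81), and 1.98 without the top cells, so suprabasal clusters lay on both sides of 1. The Igfbp3-led basal cells stood first among the 10 clusters in both libraries, and the clusters led by Defb6 (5.27 and 2.81 CPM) and Krt24 (3.78 and 0 CPM) stood last, while the order between them differed.

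**Figure D4:**
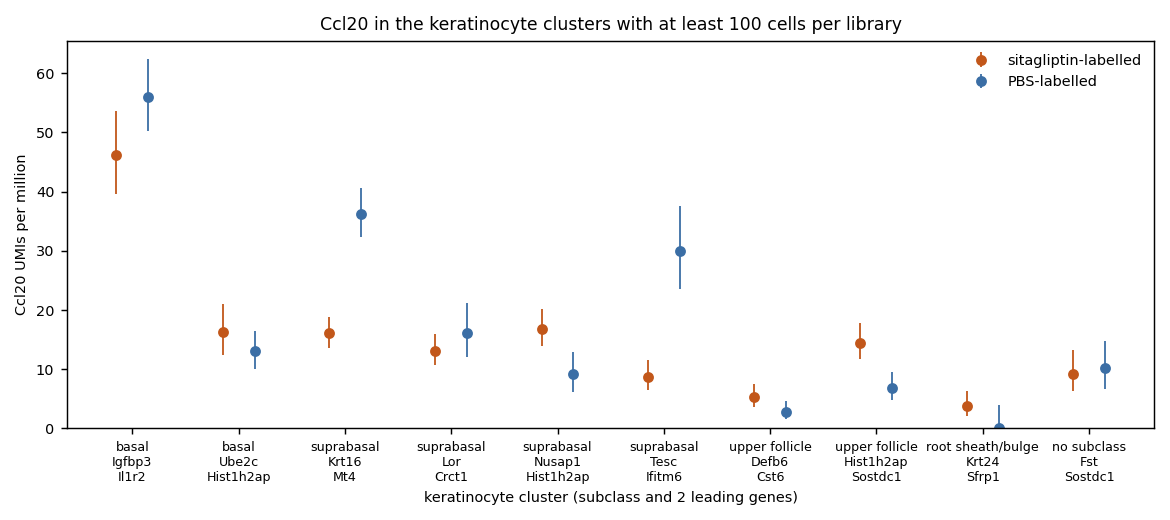
Ccl20 in CPM in the 10 keratinocyte clusters with at least 100 cells in each library (named by subclass and 2 leading genes), sitagliptin-labelled (orange) and PBS-labelled (blue), with 95% intervals of counting error. The sitagliptin-labelled point is the lower one in the suprabasal clusters led by Krt16 and Tesc and the higher one in the dividing upper follicle and dividing suprabasal clusters.

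Among the named keratinocyte subclasses, Ccl2 was highest in the upper follicle, while Ccl7 UMIs also lay in other subclasses. Ccl2 had 10.8 CPM in sitagliptin-labelled and 9.84 CPM in PBS-labelled upper follicle cells, a ratio of 1.10 (0.841 to 1.44) that became 0.979 without the cell with the most UMIs in each library. By cluster the ratio was 0.642 (0.418 to 0.977) in the Defb6-led cells and 1.64 (1.14 to 2.40) in the dividing cells led by Hist1h2ap. Without the top cells these became 0.622 (0.397 to 0.967) and 1.44 (0.962 to 2.19). The levels were 0.954 and 1.59 CPM in basal cells and 0.819 and 1.27 CPM in suprabasal cells. The cluster led by Fst and Sostdc1 had 13.9 and 17.7 CPM of Ccl2. Ccl7 had 2.83 CPM (34 UMIs) and 6.66 CPM (69 UMIs) in the upper follicle, 2.36-fold lower (1.54 to 3.66), a call made in 9 of 12 alternative settings. By cluster, Ccl7 was called in the Defb6-led cells, at a ratio of 0.209 (0.0934 to 0.423). It was not called in the dividing cells led by Hist1h2ap, at 0.754 (0.416 to 1.36). Elsewhere Ccl7 had 4 and 29 UMIs in basal cells, 15 and 51 in suprabasal cells and 37 and 21 in keratinocytes without a subclass. Among root sheath and bulge cells Ccl2 had 15 and 10 UMIs, 2.92-fold lower (1.17 to 6.95). For each 100 macrophage marker UMIs, upper follicle cells held 181 Ccl2 UMIs (151 to 214) in the sitagliptin-labelled and 11.7 (9.51 to 14.2) in the PBS-labelled library, against 36.6 and 5.06 in all keratinocytes. The upper follicle values set 130 and 102 Ccl2 UMIs against 72 and 875 marker UMIs, so the libraries differed mainly in the markers. For Ccl7 the values per 100 marker UMIs were 47.2 (32.7 to 66.0) and 7.89 (6.14 to 9.98) in the upper follicle, against 12.5 and 4.57 in all keratinocytes. The part of macrophage RNA in the Ccl2 and Ccl7 UMIs was not tested. Of the upper follicle cells, 74 and 67 had a Ccl2 UMI and 31 and 55 a Ccl7 UMI, and 9 in the sitagliptin-labelled and 16 in the PBS-labelled library had both.

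Cxcl1 and Cxcl2 were scarce in keratinocytes. Cxcl1 had 1.54 CPM (128 UMIs) in the sitagliptin-labelled and 1.74 CPM (78 UMIs) in the PBS-labelled library, a ratio of 0.883, and Cxcl2 had 0.228 CPM (19 UMIs) and 0.937 CPM (42 UMIs), a ratio of 0.243. Both stayed under the filter of 5 CPM, as did Ccl2 (3.37 and 4.55 CPM) and Ccl7 (1.15 and 4.10 CPM, 3.56-fold lower). By subclass Cxcl1 lay between 0.896 and 3.24 CPM in the sitagliptin-labelled library and reached 3.096 CPM in basal cells of the PBS-labelled library.

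**Figure D5:**
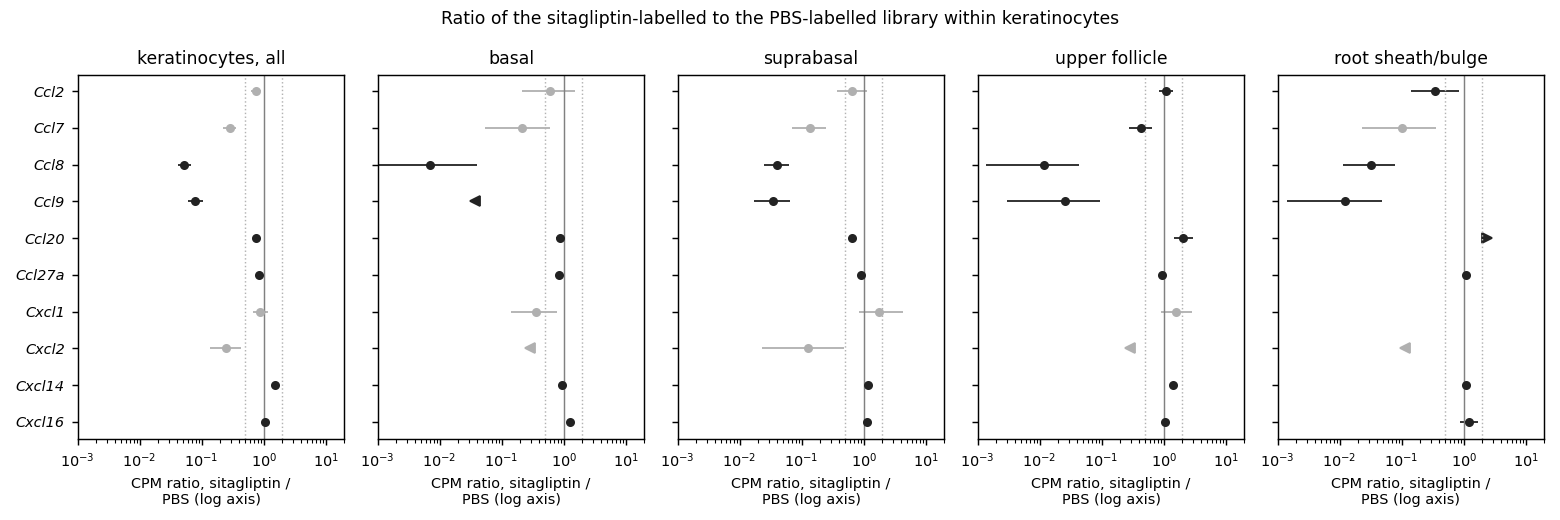
Ratio of sitagliptin-labelled to PBS-labelled CPM on a log axis for the 10 genes (rows) in all keratinocytes and 4 subclasses (panels), with 95% intervals of counting error; grey points are genes below the filter, triangles are bounds where 1 library has 0 UMIs, and dotted lines mark 2-fold. Ccl8 and Ccl9 lie left of the dotted line in every panel, and Ccl20 lies right of the solid line in the upper follicle and in the root sheath or bulge.

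Sebocytes, the lipid-producing gland cells, stood apart in make-up: 878 and 68 cells, of which 809 and 7 were in a cluster led by Scd3 and Far2, and 15.7% of genes were called. Ccl27a (290.5 and 81.2 CPM), Cxcl14 (288 and 37.1 CPM) and Cxcl16 (45.5 and 11.6 CPM) were called higher. In the sebocyte cluster that both libraries filled, with 69 and 61 cells, Ccl27a had 78.9 and 60.1 CPM and Cxcl14 had 123.8 and 31.96 CPM (69 and 25 UMIs, of which 1 sitagliptin-labelled cell held 66.7% of its library's), whereas Cxcl16 had 3 and 5 UMIs. The part of the cluster make-up in the class ratios was not tested.

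Over whole libraries, without regard to class, Ccl9 was 75.9-fold, Cxcl2 63.2-fold, Ccl8 55.5-fold, Ccl7 24.3-fold and Ccl2 7.57-fold lower in the sitagliptin-labelled library. Cxcl1, of which fibroblasts held 41.9% in the PBS-labelled library, was 2.47-fold lower. Ccl27a (ratio 0.982), Ccl20 (0.877), Cxcl16 (1.08) and Cxcl14 (1.67) differed less. Macrophages were 11 of 18380 cells in the sitagliptin-labelled and 720 of 5932 in the PBS-labelled library, and the Lyz1-led cluster 10 and 299; their part in these differences was not tested.

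Other genes of the pathway were read from fixed lists. Beside the counts for keratinocytes below stands the share of all genes called there, 1.38%. Of 27 other chemokine ligands found, 6 passed the filter in keratinocytes, 0 were higher and 3 were lower: Pf4 (0.588 and 10.9 CPM), Ccl6 and Ccl21a. The median log2 ratio over the 14 with at least 20 UMIs was −0.45, beside −0.37 for the 10 genes described here and 0.00 for all genes so filtered (pseudocount of 1 CPM). With a pseudocount of 5 CPM, both ligand medians were −0.21. The largest ratio was that of Ccl25, a ligand of Ccr9, at 8.27 and 5.84 CPM. Of 23 chemokine receptors, 4 passed and none was called, with Ccr4 at 11.9 and 8.61 CPM and the atypical receptor Ackr3 at 12.3 and 11.5 CPM, and the median was 0.00. Of 20 genes of NF-kappaB and cytokine signalling, 16 passed and 0 were called, from Birc3 (ratio 1.06) to Zc3h12a (0.707), with a median of −0.14. Of 14 genes of the response to tissue dissociation, 14 passed and Nr4a1 (17.4 and 43.1 CPM) was called lower in keratinocytes, with a median of −0.39. Among root sheath and bulge cells 10 of those 14 were called lower, with a median of −1.35, where 2.05% of all genes were called lower. A link with the Ccl2 and Ccl20 values there was not tested.

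Among receptors with at least 20 UMIs in a class, Ccr2, Ccr1 and Cxcr6 were highest outside keratinocytes. Cxcr2 and Ccr10 reached that count only in keratinocytes, and Ccr6 and Ccr8 reached it in no class. Ccr2, the receptor of Ccl2 and Ccl7, had 258 CPM in macrophages and 533 CPM in dendritic cells of the PBS-labelled library, and Ccr1, a receptor of Ccl9, had 60.4 CPM in those macrophages. Cxcr6, the receptor of Cxcl16, had 217 CPM in T or innate lymphoid cells of that library (22 UMIs). Cxcr2, the receptor of Cxcl1 and Cxcl2, was present in suprabasal keratinocytes at 3.58 CPM in the sitagliptin-labelled and 4.88 CPM in the PBS-labelled library. Ackr4, an atypical receptor for Ccl19, Ccl21 and Ccl25, was the most abundant receptor of keratinocytes, at 71.5 and 56.0 CPM. Ccr10, the receptor of Ccl27a, had 29 UMIs in all sitagliptin-labelled keratinocytes.

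Over the 25 clusters with at least 50 cells in the PBS-labelled library, the genes whose log2 levels were most like each ligand were found by Pearson's r, as a description, since the clusters share 1 library and its free RNA. Ccl9 was most like Cfp (0.99), Ccl6 (0.98) and Mrc1 (0.98); Ccl8 like Lgmn (0.89), Folr2 and Pf4; and Ccl7 like Cmklr1 (0.93), Lgmn and C1qb. Ccl2 was most like Stxbp6 (0.92), Aldh3b1 and Oasl2, and Cxcl2 like Cd84 (0.93), Tbxas1 and Lilr4b. Of the epithelial ligands, Ccl27a was most like Krt15 (0.91), Nsa2 and Syne2, Cxcl14 like Cpe (0.90), Nckap5 and Postn, and Ccl20 like Stfa3 (0.88), Oas1f and Guca2a. Cxcl16 was most like Il13ra1 (0.89), Ptges and H2-T22, and Cxcl1 like Oaf (0.88), Pofut2 and Fzd4. Among the 10 genes, Ccl7 and Ccl8 (0.86) and Ccl9 and Cxcl2 (0.80) were alike, and Ccl7 and Ccl27a were opposite (−0.62).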

How the data were processed

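UMI counts per gene and barcode, not normalized, are as the authors deposited them, 1 matrix per library with 31053 genes, per the file headers. Per the submitters' processing notes, Cell Ranger 3.1.0 and mm10 were used; the calling of cells from barcodes is not stated in these sources. Totals were 95047000 UMIs in the sitagliptin-labelled and 70729930 in the PBS-labelled library; 75 barcodes occurred in both, 41 among those retained. Groups follow the treatment labels. The 10 genes and all lists were chosen with earlier results of these data known.

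Retained cells were scaled to 10000 counts, log-transformed and clustered on 2000 variable genes without mitochondrial and chemokine genes, with 30 principal components, 15 neighbours and Leiden resolution 1, mixed clusters a second time (Python 3.11.15 with scanpy 1.11.5, pandas 2.3.3, numpy 2.4.6, igraph 0.11.9, leidenalg 0.10.2, scipy 1.17.1, matplotlib 3.10.9 and scikit-learn 1.9.0; seed 1). Clusters were named by the highest mean marker score of 19 classes and stayed unnamed where markers of another class led. Names rebuilt this way may differ from the study's. Scrublet marked 0 of 18380 sitagliptin-labelled and 2 of 5932 PBS-labelled cells, which means that it did not work, and doublets were not removed. Shares of cells were taken with each cell thinned to 1000 UMIs. Named genes are the 10, the list members with the largest and smallest ratio, receptors with at least 20 UMIs in a class and the 3 genes most like each ligand; Ccl6 and Ccl21a were named to complete a count, after their values were seen. Of the gene IDs, 99.9% matched GENCODE vM21. The ratio and its interval were checked on simulated counts. Totals limit precision, and intervals and floors cover counting error only.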

Additional observations from a re-analysis of the deposited data

Results flagged for a closer look

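Ccl20 lay on opposite sides of 1 in keratinocyte clusters of the same 2 libraries. Its ratio, sitagliptin-labelled over PBS-labelled, was 0.443 in the suprabasal cluster led by Krt16 and 0.29 in the one led by Tesc, against 2.11 in the dividing upper follicle cluster led by Hist1h2ap and Sostdc1. The dividing suprabasal cluster led by Nusap1 was at 1.84, not called. The difference between these clusters was not tested, and a few PBS-labelled cells held many of the UMIs in the first 2.

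Barcodes that the filters left out, 3705 of the sitagliptin-labelled and 4524 of the PBS-labelled library, also held the ligands. In them 4 genes were higher in the sitagliptin-labelled library beyond counting error: Cxcl14 at 456 and 302 CPM (ratio 1.51), Ccl20 at 18.8 and 12.8 CPM (1.47), Ccl27a at 417 and 299 CPM (1.39) and Cxcl16 at 58.3 and 47.8 CPM (1.22). These barcodes were not sorted by class, so they are set against all retained cells. In all retained cells the ratio was 0.982 (0.966 to 0.999) for Ccl27a and 0.877 (0.808 to 0.952) for Ccl20, on the other side of 1. Retained keratinocytes alone, a different set of cells, had 0.854 and 0.749. In the left-out barcodes the other 6 genes were lower in the sitagliptin-labelled library, from Cxcl1 (2.202 and 4.42 CPM) to Ccl9 (1.90 and 165 CPM).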

How the results depend on the processing

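Ccl8 and Ccl9 were called lower in keratinocytes under all 14 alternatives, with ratios of 0.0207 to 0.0778 and 0.0172 to 0.132. Ratios of Ccl20 in keratinocytes ran from 0.697 to 1.06 and of Ccl27a from 0.81 to 1.06, above 1 with the subclasses weighted equally. That weighting gave sebocytes, which differed in make-up between libraries, the same weight as the other subclasses. Cxcl14 ran from 1.18 to 1.63. In basal cells Ccl20, not called, ran from 0.827 to 1.49, the highest at 5% mitochondrial UMIs. In the upper follicle Ccl20 ran from 1.14, at 5% mitochondrial UMIs, to 2.53 and was called in 6 of 13 alternatives. Counts of the 10 genes called moved by over 1.5 times as follows. The share of all genes called at each of these settings is not given here, so nothing beyond the movement is read from the counts. With cells thinned to 1000 UMIs, 4 were called in keratinocytes (Ccl2, Ccl7, Ccl8 and Ccl9, main count 2), 1 in basal cells (Ccl8, main 2), 1 in the upper follicle (Ccl8, main 4) and 0 among root sheath and bulge cells (main 4). With no minimum CPM, 4 were called in keratinocytes and 4 in basal cells. In the upper follicle 2 were called, Ccl8 and Ccl9, at Leiden resolution 0.5 and with each library clustered on its own. Among root sheath and bulge cells 1 was called (Cxcl16, higher) at 5% mitochondrial UMIs, with 455 and 21 cells, and 2 without the 8% of cells with the highest Scrublet score. The median log2 ratio of the 10 genes moved to −0.21 and that of other ligands to −0.21 with a pseudocount of 5 CPM. The causes were not tested. No call of a single gene changed direction. No paired analysis was possible because each treatment has 1 library.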
